A study of Rattus norvegicus with 6 samples.

Results

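The genes described here are the nuclear genes of oxidative phosphorylation, the enzyme complexes of the inner mitochondrial membrane, in rat hippocampus after removal of the testes. Members were the genes whose symbol starts with Ndufa, Ndufb, Ndufc, Ndufs, Ndufv, Uqcr, Atp5 or Cox followed by a digit from 4 to 8, with Sdha, Sdhb, Sdhc and Sdhd. This took 83 of the 15154 genes named on the array, on 105 of 30367 probes. Assigned by symbol alone, complex I had 39 members, complex II 4, complex III 8, complex IV 17 and complex V, the ATP synthase, 15. By role 73 were subunits, and the other 10 were assembly factors, an inhibitor, a gene copy and a pseudogene. Counts and medians by complex include these 10. Each gene was read from its brightest probe, 66 genes having 1 probe and 17 several. The array files give no symbols, so names came from RefSeq accessions, and subunits whose probe carried no match were not analysed here. The 13 mitochondrially encoded subunits had no probe under their symbols and were not analysed here.

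By their labels, the samples were hippocampus of male Wistar rats operated on at 2 months of age, 2 weeks after orchidectomy or a sham operation, and each of the 6 was hybridised to 1 one-colour Agilent array. There were 3 orchidectomized and 3 sham samples, which the labels call biological replicates. Both groups lived in a 12 h light, 12 h dark rhythm. With 3 rats per group, small differences cannot be resolved. Values are log2 processed signals minus the 75th percentile of the same array, so 0 is the level of a fairly bright probe, and values of different probes are not set against each other. In bulk tissue, fewer cells of a type and less RNA per cell cannot be told apart.

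Oxidative phosphorylation passes electrons from NADH (complex I) and succinate (complex II) through ubiquinone, complex III and cytochrome c to oxygen at complex IV. The protons moved along the way drive ATP synthesis at complex V. Neurons rely on this pathway for ion pumping and transmitter release, and some subunits of complex IV exist as isoforms that differ between tissues.

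The array labelled sham 2 stood apart from the other 5 before any member was considered. Its correlation with the others across tested probes was 0.803 to 0.813, against 0.987 to 0.996 among the other 5. Of 14 choroid plexus markers 13 lay above the range of the other arrays, and 10 of 10 glutamatergic neuron markers lay below it. Measured from the median of the other 5 arrays, the median marker of the first list stood at 9.25 and that of the second at -7.07. The mean level of the glutamatergic list was -6.76 on this array and between -0.87 and -0.20 on the rest, while its 9 of 9 scanner quality measures were in range as on every array. The markers thus go against its label, so that the tissue of this sample is in doubt, and every difference over 6 arrays includes it. Results are therefore given with and without sham 2, and its values are also described on their own.

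No member differed between orchidectomized and sham rats past the threshold, with or without sham 2. Over 6 arrays 0 of 82 members had an adjusted p under 0.05 (limma, Benjamini-Hochberg over all 24634 tested probes, background 0%), and none had an unadjusted p under 0.05, against a background of 0.731%. In simulated data with the spread over 6 arrays, this fit recovered none of the planted changes of either size. The smaller planted change exceeded the difference over 6 arrays of every member but Cox8b. The simulated spread was equal on every array, unlike the data, where sham 2 stands apart. The count over 6 arrays cannot show that members were unchanged. Without sham 2 the count was again 0 of 82 (limma, 0% of 25212 probes), with no member and 2.71% of all probes under an unadjusted 0.05. The member not tested was Cox8c, the testis isoform of a small complex IV subunit, whose signal was above background on no array.

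The direction of the members' median depended on sham 2. Over 6 arrays the median difference, orchidectomized minus sham, was -0.060 with 33 of 82 members higher, beside -0.016 and 48.4% higher over all tested probes. Without sham 2 it was 0.090 with 69 of 82 higher, beside -0.024 and 44.9%. With normexp background correction the median without sham 2 was 0.08 for the members and 0.08 for all tested probes. Leaving out a further array gave 0.033 without orchidectomized 3, with 60 of 82 higher, 0.160 without orchidectomized 2 and 0.187 without sham 1.

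Many member probes were saturated, and the medians above include them. The brightest probe was saturated on at least 1 array for 26 of 83 members (31.3%), against 2.73% of tested probes. In complex V this held for 9 of 15 genes, in complex III for 4 of 8, in complex IV for 6 of 17, in complex I for 7 of 39 and in complex II for none of 4. Before scaling, the 6 members saturated on every array read nearly the same everywhere, with a range over arrays of 0.04 for Atp5me to 0.19 for Atp5f1a. The 75th percentiles then subtracted ran from 10.13 on orchidectomized 3 to 11.33 on sham 3. All 150 probes saturated on 6 arrays gave a positive difference without sham 2, with a median of 0.403. For the 6 members, Ndufb8, Uqcr10, Cox6a1, Cox8a, Atp5f1a and Atp5me, no fold is given.

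Among the 56 tested members saturated on no array, the median difference without sham 2 was 0.061, with 43 higher. The median level of these members was 3.09 to 3.22 on the 5 arrays. Unsaturated probes with a mean value from 2 to 3 had a median difference of 0.018 with 55.4% of 1429 higher, those from 3 to 4 a median of 0.042 with 62.8% of 837 higher, and those from 4 to 5 a median of 0.086 with 72.6% of 453 higher. Replacing saturated probes by the gene's brightest unsaturated one left 61 genes with a median of 0.065.

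**Figure D1:**
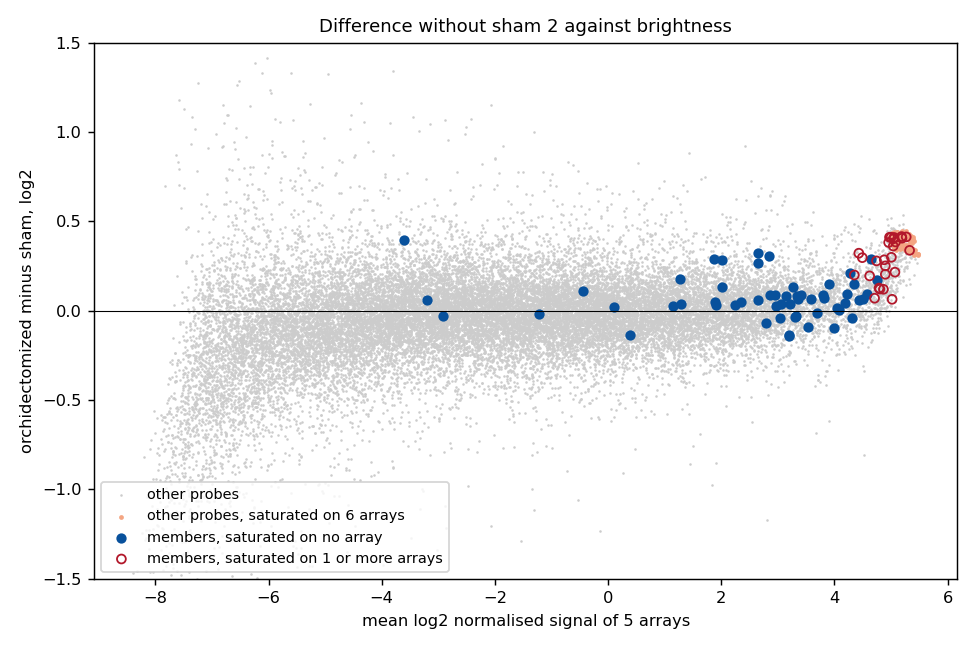
Difference between orchidectomized and sham arrays without sham 2 (log2, y axis) against the mean normalised signal of the 5 arrays (log2, x axis) for each tested probe; 116 other probes with a difference beyond 1.5 are outside the axis. Members that were saturated on no array (filled) have a median of 0.061, and members saturated on some array (open) lie among the brightest probes with a median of 0.298.

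Orchidectomized 3 gave the highest of the 5 values, sham 2 left aside, for 61 of 82 members, while sham 3 did so for 3. Relative to the median of the 5 arrays the median member stood at 0.229 on orchidectomized 3 and at -0.102 on sham 3, and unsaturated members at 0.147 and -0.067. On the same arrays unsaturated probes from 3 to 4 in mean value, the bin of the members' median level, stood at 0.052 and -0.026, nearer 0 than the members, and those from 4 to 5 stood at 0.108 and -0.097. Orchidectomized 3 had the lowest 75th percentile and 672 outlier spots, against 235 to 313 on the other arrays. The part of these in the members' values was not tested.

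**Figure D2:**
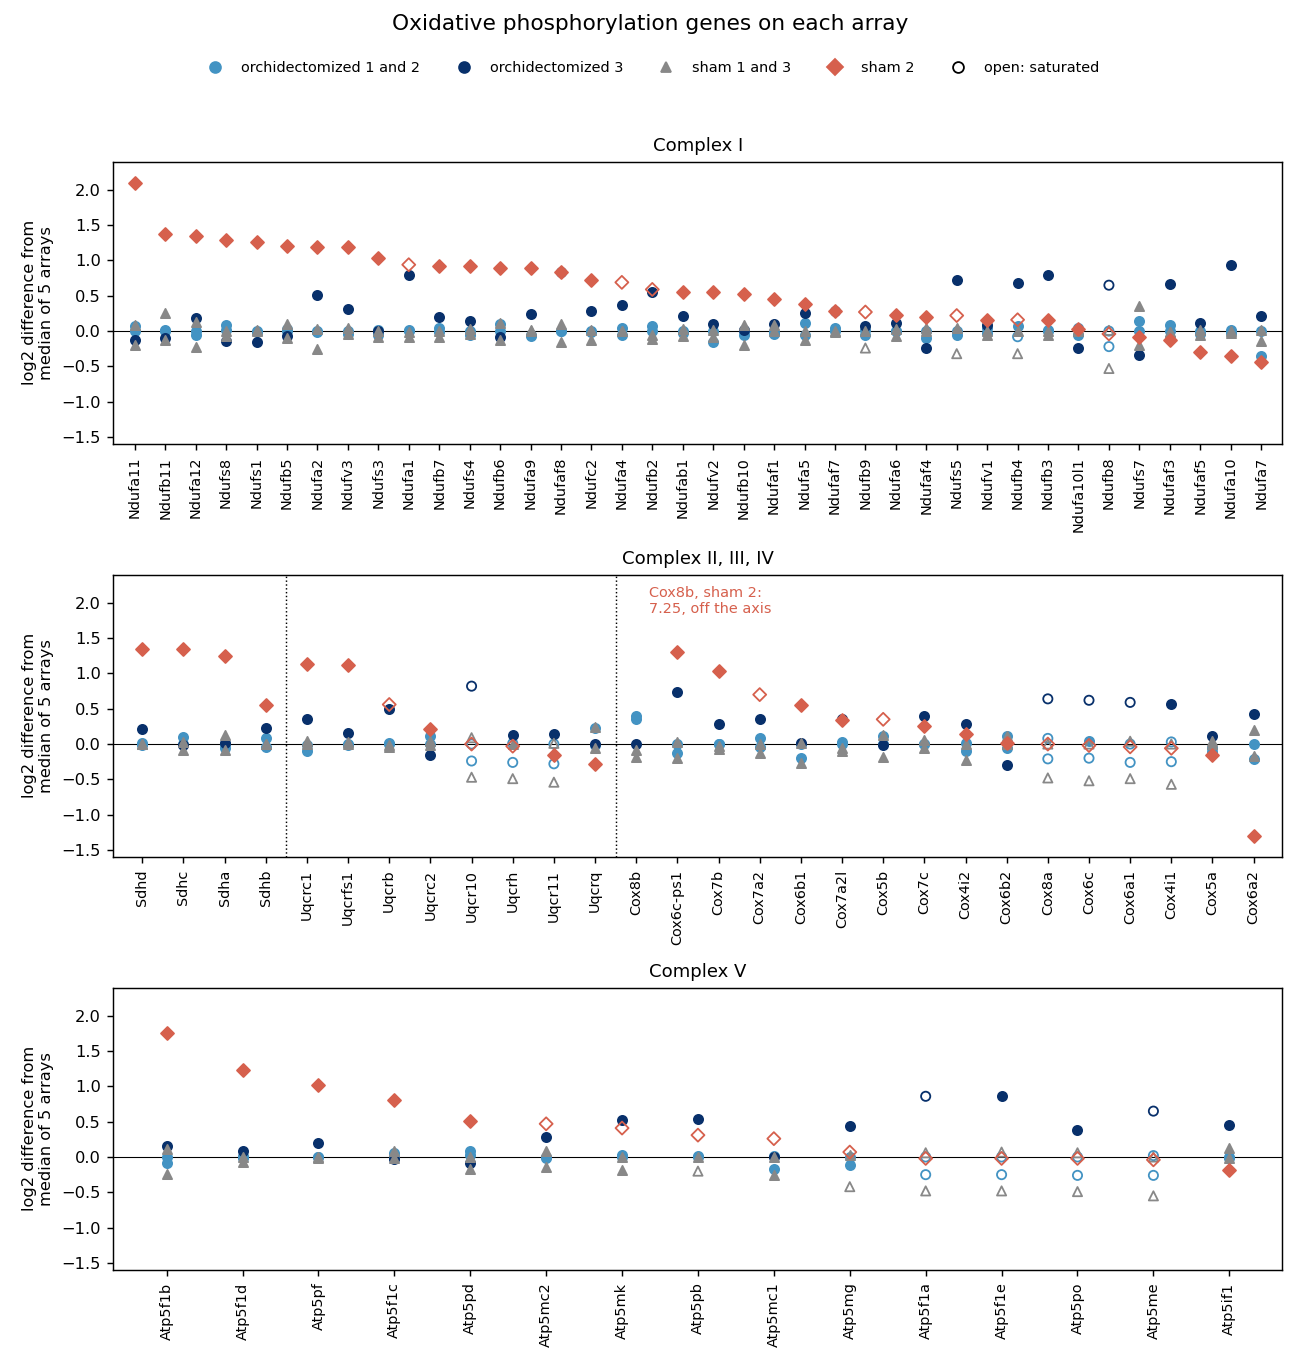
All but 1 of the tested members on each array, as the log2 difference from the median of the 5 arrays other than sham 2, grouped by complex and ordered within it by the value on sham 2. Sham 2 (red diamonds) lies above the other arrays for 49 of the 82 tested members, Cox8b by 7.25, off the axis, and orchidectomized 3 (dark blue) is the highest of the other 5 for 61; open symbols are saturated.

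In complex I the catalytic core takes electrons from NADH through flavin and iron-sulphur clusters to ubiquinone. Of its genes, Ndufs1 and Ndufv1 lay within a narrow range on the 5 similar arrays. Ndufs1, the largest iron-sulphur subunit, read 2.82, 2.80 and 2.66 on orchidectomized 1 to 3, 2.82 and 2.84 on sham 1 and 3, and 4.08 on sham 2. Ndufv1, which binds NADH and the flavin, read 4.54, 4.46 and 4.57 on the orchidectomized arrays, 4.49 and 4.43 on sham 1 and 3, and 4.65 on sham 2. For both genes the groups overlap without sham 2, and sham 2 is the highest array, by 1.26 above the median of the other 5 for Ndufs1 and by 0.17 for Ndufv1. Ndufs7, which lies at the ubiquinone site, was 0.07 below that median on sham 2 and varied more than Ndufs1 and Ndufv1 among the rest, from 2.86 on orchidectomized 3 to 3.55 on sham 1. Ndufs3, Ndufs8 and Ndufv2 lay 1.03, 1.29 and 0.55 above it. Without sham 2 the differences of all 13 catalytic core members of the 5 complexes ran from -0.14 to 0.41, and those of the 12 that were never saturated from -0.14 to 0.09.

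The accessory subunits of complex I surround the core and stabilise it. Ndufa11, in the membrane arm, read 1.39, 1.32 and 1.19 on the orchidectomized arrays, 1.41 and 1.12 on sham 1 and 3, and 3.42 on sham 2. Ndufb11, also in the membrane arm, read 3.55, 3.53 and 3.43, then 3.79 and 3.40, and 4.90 on sham 2. Both overlap between groups on the 5 similar arrays, and sham 2 stands 2.10 and 1.37 above their median. Over 6 arrays Ndufb11 had the smallest p of the complex I genes that were lower, at -0.52 ± 0.41 (SE, limma adjusted p = 0.774).

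Ndufa10 went the other way on sham 2. It read 2.48, 2.44 and 3.41 on the orchidectomized arrays and 2.47, 2.12 and 2.44 on sham 1, 2 and 3, so that orchidectomized 3 stood alone and the groups overlapped. The difference was 0.43 ± 0.32 over 6 arrays (limma adjusted p = 0.774) and 0.32 ± 0.32 without sham 2 (limma adjusted p = 0.988). Ndufb2 had the smallest p among the higher genes of complex I without sham 2, with 4.40, 4.47 and 4.96 against 4.34 and 4.29, groups that do not overlap. Its difference was 0.30 ± 0.20 (SE, limma adjusted p = 0.988), and its probe was saturated on sham 2.

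Assembly factors of complex I help build the enzyme and are not part of it. Ndufaf3 and Ndufaf4 act as a pair. By brightest probe they were the only members whose groups did not overlap over 6 arrays, in opposite directions. Ndufaf3 read 2.51, 2.60 and 3.17 on the orchidectomized arrays and 2.49, 2.39 and 2.50 on sham 1, 2 and 3. Ndufaf4 read 0.35, 0.45 and 0.21, then 0.45, 0.65 and 0.50. All orchidectomized values are thus the higher for Ndufaf3 and the lower for Ndufaf4, although the nearest arrays of the groups differed by 0.01 or less. Across all tested probes 3.26% did not overlap in the higher and 4.74% in the lower direction. Without sham 2 the differences were 0.27 ± 0.23 and -0.14 ± 0.13 (SE, limma adjusted p = 0.988 for both). The 4 probes of Ndufaf4 gave differences from -0.14 to 0.05. A dimmer probe each of Ndufv3 and Ndufs4 also did not overlap, in the lower direction, with and without sham 2. Over 6 arrays they differed by -0.54 ± 0.33 and -0.34 ± 0.21 (SE, limma adjusted p = 0.774 for both). Without sham 2 they gave -0.21 and -0.28, while the brightest probes of these genes gave 0.09 and 0.03.

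Without sham 2 and by brightest probe, 9 members did not overlap in the higher direction (of 82, background 6.24%) and 1 in the lower (background 10%). The 9 were Ndufaf3, Ndufaf7, Ndufa1, Ndufb2, Uqcrb, Cox7a2l, Cox7b, Cox8b and Atp5mk, and 4 of them had a probe that was saturated on sham 2. Each had an adjusted p of 0.988 (limma). Among the 17 genes with several tested probes, the probes disagreed in sign for 5 in this comparison and for none on sham 2.

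Complex II oxidises succinate and is the one respiratory complex that also belongs to the citric acid cycle. Sdha, the flavoprotein, read 2.98, 3.04 and 3.05 on the orchidectomized arrays, 2.96 and 3.17 on sham 1 and 3, and 4.28 on sham 2. Sdhb, the iron-sulphur subunit, read 2.89, 2.77 and 3.04, then 2.81 and 2.81, and 3.36 on sham 2. The 5 similar arrays overlap for both, and sham 2 is above them. Sdhc and Sdhd, the membrane anchors, lay 1.34 and 1.35 above the median of the other 5 on sham 2. All 4 members were above range there, with a median of 1.29, the highest median of the 5 complexes and one that no saturated probe enters. Over 6 arrays Sdha differed by -0.45 ± 0.38 (SE, limma adjusted p = 0.774). Without sham 2 the 4 differences ran from -0.04 to 0.09.

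Complex III passes electrons from ubiquinol to cytochrome c. Uqcrfs1, the Rieske iron-sulphur protein, read 3.00, 3.01 and 3.17 on the orchidectomized arrays, 3.01 and 3.04 on sham 1 and 3, and 4.13 on sham 2. Groups overlap without sham 2, and the difference over 6 arrays, -0.33 ± 0.35 (SE, limma adjusted p = 0.774), became 0.04 without it. The core proteins Uqcrc1 and Uqcrc2 lay 1.13 and 0.22 above the median of the other 5 on sham 2. Uqcrq, a small subunit, lay 0.28 below it. The remaining 4 genes, Uqcrb, Uqcr10, Uqcr11 and Uqcrh, were saturated on 1, 6, 4 and 4 arrays.

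Complex IV reduces oxygen to water, and its nuclear subunits tune a core made in the mitochondrion. The tissue isoforms behaved unlike each other on sham 2. Their partners Cox8a, Cox6a1 and Cox4i1 were saturated on 5 or 6 arrays, so these pairs give no contrast. Cox8b, the heart and skeletal muscle isoform of subunit 8, read -3.34, -3.30 and -3.70 on the orchidectomized arrays, -3.79 and -3.89 on sham 1 and 3, and 3.55 on sham 2. Its signal was well above background on all 6 arrays and saturated on none. The value on sham 2 lay 7.25 above the median of the other 5, a 153-fold signal on this 1 array, and 6.58 above it with normexp background correction. Cox8a, the form found in most tissues, was saturated on all 6 arrays and gives no ratio.

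Cox6a2, the muscle isoform of another small subunit, was the member farthest below the other arrays on sham 2. It read -3.25, -3.46 and -2.82 on the orchidectomized arrays, -3.05 and -3.42 on sham 1 and 3, and -4.55 on sham 2, which is 1.30 below the median of the others. Its partner Cox6a1 was saturated on all 6 arrays. Cox4i2, an isoform known from lung and from low oxygen, read 1.28, 1.17 and 1.56, then 1.27 and 1.05, and 1.41 on sham 2, inside the range of the rest. Its partner Cox4i1 was saturated on every array but orchidectomized 3. Cox6b2, known as a testis isoform, was well above background on all 6 arrays, at 3.34, 3.16 and 2.92, then 3.34 and 3.22, and 3.23 on sham 2. Its partner Cox6b1, saturated on no array, stood at 4.23 on sham 2, above the range of the others and 0.55 above their median. Thus only Cox8b and Cox6a2 of the 4 tested tissue isoforms lay outside the range of the other arrays on sham 2.

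**Figure D3:**
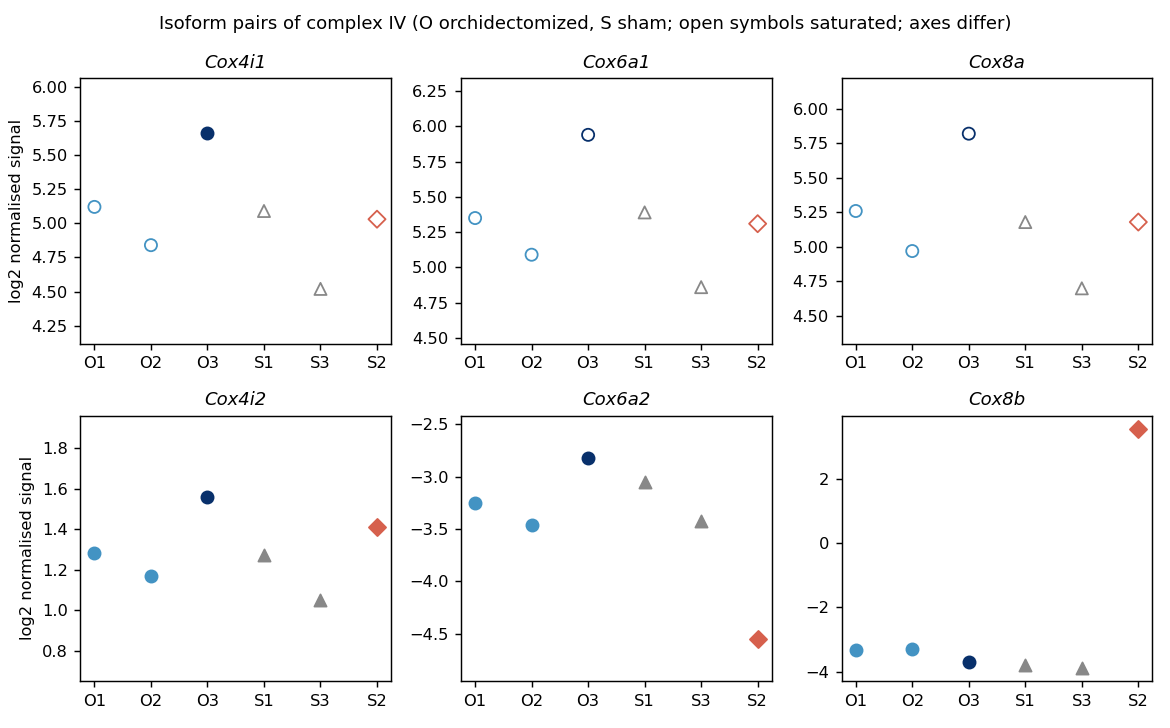
Normalised signal (log2, y axis, with its own range in each panel) of 3 isoform pairs of complex IV on each array; O is orchidectomized, S is sham and open symbols are saturated. Cox8b is at 3.55 on sham 2 and between -3.89 and -3.30 elsewhere, Cox6a2 is lowest on sham 2 at -4.55, and Cox6a1 and Cox8a are saturated on all 6 arrays.

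Between the surgical groups, Cox8b had the smallest p of all members without sham 2, at 0.40 ± 0.17 (SE, unadjusted p = 0.0612, limma adjusted p = 0.988). All 3 orchidectomized arrays lay above both remaining sham arrays. Over 6 arrays the difference was -2.07 ± 2.09 (limma adjusted p = 0.774), so its sign rests on sham 2. On the slide that held both orchidectomized 3 and sham 1 it was 0.092. Choroid plexus marker levels stand beside it. The mean of that list was -2.87, -3.30 and -3.91 on orchidectomized 1 to 3, -3.44 and -4.41 on sham 1 and 3, and 4.51 on sham 2. Of its 13 tested genes 12 were higher in the orchidectomized arrays without sham 2, by a median of 0.38, and Ttr, which codes for transthyretin, read 5.20, 4.87 and 4.36 against 3.47 and 2.99, with its probe saturated on 2 of the 6 arrays. The part of choroid plexus RNA in the Cox8b difference was not tested.

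Among the complex IV members saturated on no array, the others differed less than Cox8b without sham 2. Cox6c and Cox4i1, each saturated on 5 arrays, differed by 0.41 and 0.40, beside a median of 0.403 for the 150 probes saturated on every array. With quantile normalization they differed by 0.05 and 0.14. The part of saturation in these values was not tested. Cox7b, a small subunit, read 3.87, 3.87 and 4.16 against 3.84 and 3.80 without sham 2, groups that do not overlap, with a difference of 0.15 ± 0.15 (SE, limma adjusted p = 0.988). It stood at 4.91 on sham 2, above the rest. Cox4i2 differed by 0.18 ± 0.17 and Cox6b2, the lower member with the smallest p, by -0.14 ± 0.17 (limma adjusted p = 0.988 for both). Cox5a, which sits on the matrix side, lay 0.16 below the median of the other 5 on sham 2, and Cox6c-ps1, annotated as a pseudogene of Cox6c, 1.30 above it. Signal of this gene cannot be told apart from that of its parent where the probe binds both.

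Promoters of 3 members are shown because they hold the motifs counted next: Cox8b and Ndufa11, the members farthest above the other arrays on sham 2, and Cox8a, the isoform partner of Cox8b, whose saturated probe gives no contrast. Each is the 250 bases before the annotated start, from RefSeq on GRCr8, read 5′ to 3′ on the gene's own strand. Capitals mark matches to the motifs searched: the ETS core in Cox8a (chr1:213833624-213833873, minus strand), a GC box in Cox8b (chr1:205408274-205408523, minus strand) and overlapping NRF1 cores in Ndufa11 (chr9:1637364-1637613, plus strand).
Cox8a: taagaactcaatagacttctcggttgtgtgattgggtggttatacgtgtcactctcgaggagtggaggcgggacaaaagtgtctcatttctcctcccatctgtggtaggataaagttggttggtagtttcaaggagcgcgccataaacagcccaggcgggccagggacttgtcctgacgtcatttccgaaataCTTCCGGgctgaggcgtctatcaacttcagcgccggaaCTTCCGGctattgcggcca
Cox8b: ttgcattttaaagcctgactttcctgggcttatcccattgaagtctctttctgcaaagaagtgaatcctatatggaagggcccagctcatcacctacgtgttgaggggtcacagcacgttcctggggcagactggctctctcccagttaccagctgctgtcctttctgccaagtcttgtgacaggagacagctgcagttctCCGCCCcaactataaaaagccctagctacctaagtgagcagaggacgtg
Ndufa11: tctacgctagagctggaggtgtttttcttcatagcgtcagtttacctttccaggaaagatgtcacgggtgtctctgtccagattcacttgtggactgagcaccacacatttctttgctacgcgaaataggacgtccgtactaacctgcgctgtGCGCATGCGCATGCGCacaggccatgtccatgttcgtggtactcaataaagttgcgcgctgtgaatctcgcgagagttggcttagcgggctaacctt

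NRF1, the GABP factor of the ETS family, YY1 and Sp1 are transcription factors long linked to nuclear genes of respiration. A promoter of 300 bases, 250 before and 50 after the start, was in the table for 73 of 83 members, and motifs were searched on both strands. The ETS core, CCGGAAG, was in 22 of the 73 (30.1%), beside 15.1% of 10802 genes tested on the arrays and 8.75% of all 33469 promoters. The NRF1 core, GCGCATGC, was in 11 (15.1%), beside 4.26% and 2.47%. The YY1 core, AAGATGGCG, was in 9 (12.3%), beside 2.86% and 1.73%. Of the 9, 7 belong to complex I, which holds 36 of the 73 promoters. The GC box, GGGCGG, was in 31 (42.5%), beside 56.0% and 33.1%. No motif shared bases with a different motif in a member's promoter. All 4 kinds were in Ndufa6, 3 in Atp5me and in Ndufa2, and none in 22 members. These are matches of letters and not measured binding.

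**Figure D4:**
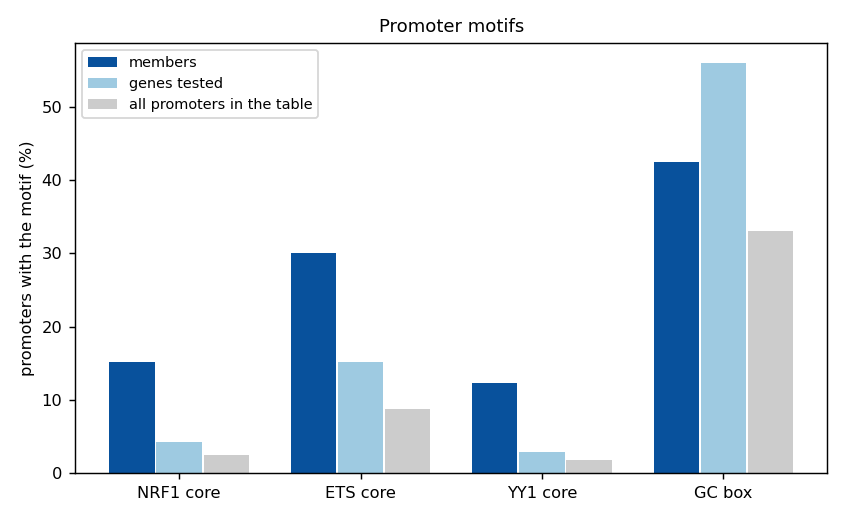
Share of promoters (%, y axis) with each motif on either strand, for the 73 members with a promoter, the 10802 tested genes and all 33469 promoters of the table. The bar of the members is the tallest for the NRF1, ETS and YY1 cores, and for the GC box it lies between the other bars, at 42.5%.

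Complex V couples the return of protons to ATP synthesis. Atp5f1b, the catalytic beta subunit, read 2.96, 2.88 and 3.11 on the orchidectomized arrays, 2.72 and 3.07 on sham 1 and 3, and 4.71 on sham 2. Atp5f1c, the rotating gamma shaft, read 3.35, 3.29 and 3.26, then 3.38 and 3.28, and 4.10 on sham 2. Both groups overlap without sham 2, while sham 2 lies 1.76 and 0.82 above the median of the other 5. Atp5f1a, the alpha subunit, was saturated on all arrays. Over 6 arrays Atp5f1c differed by -0.29 ± 0.27 (SE, limma adjusted p = 0.774). The delta subunit Atp5f1d lay 1.24 above the median on sham 2 and the coupling factor Atp5pf 1.02. Atp5if1, which inhibits ATP hydrolysis by the enzyme, was 0.18 below it and below the range of the other arrays. Atp5mk, a small membrane subunit, had the smallest p of the higher complex V members without sham 2, with 4.70, 4.67 and 5.20 against 4.67 and 4.49 and a difference of 0.28 ± 0.20 (SE, limma adjusted p = 0.988). Orchidectomized 2 and sham 1 differ there by less than 0.01.

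Taken over all complexes, the array labelled sham 2 read higher than the other 5 for most members. As 1 array against 5 this is a description with no test. The median member lay 0.43 above the median of the other 5, and 0.59 above it among the 56 unsaturated members, beside 0.007 over all tested probes. In all 49 of 82 members were above the range of the other 5 (59.8%, background 40.2%) and 8 below it (9.76%, background 40.3%). More than 1 log2 unit above the median were 20 members (24.4%, background 18.8%), and more than 1 below it was 1 member, Cox6a2 (1.22%, background 24%). Among unsaturated members the medians were 0.59 for complex I, 1.29 for II, 0.67 for III, 0.29 for IV and 0.92 for V, and all stayed positive under the 4 other normalizations tried. Besides Cox8b, Ndufa11 and Atp5f1b, the highest were Ndufb11 and Ndufa12, and besides Cox6a2 the lowest were Ndufa7, Ndufa10, Ndufaf5 and Uqcrq. With median scaling the median of all probes stood at 0.27 on this array and that of the members at 0.68, and with quantile normalization they stood at 0.14 and 0.33. Beside these values stand the marker lists of this array, with choroid plexus up and neurons, astrocytes (median -4.63) and oligodendrocytes (median -4.47) down, and their part in the members' values was not tested.

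Slide and scan day did not coincide with the groups in full. Orchidectomized 3 and sham 1 shared a slide. There the median member differed by 0.226 with 63 of 82 higher, and by 0.139 among unsaturated members. Over all tested probes the median was -0.039 with 46.2% higher. This contrast is 1 array against 1, and orchidectomized 3 read highest of the 5 arrays other than sham 2 for 61 of 82 members. A fit with slide as a block compares the groups through this 1 array of each alone and takes its spread from orchidectomized 1 and 2, so its p-values are not given. Of the 2 scan days, 1 covered every orchidectomized array together with sham 1, with a median of 0.070 and 0.028 among unsaturated members, beside -0.044 and 41.8% higher over all tested probes. The only sham array in that comparison is sham 1. The other covered sham 2 and sham 3 alone.

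Other genes of the pathway gave no call in either comparison (limma, 0 adjusted p under 0.05, and none unadjusted). Of 31 assembly factors outside the naming rule, 20 were higher and 11 lower without sham 2, with a median of 0.02. The smallest p values were those of Ecsit, which acts in complex I assembly, at 0.17 ± 0.14, and Coa7, a complex IV assembly factor, at -0.27 ± 0.15. Of 13 citric acid cycle enzymes 9 were higher and 4 lower, with a median of 0.07, and on sham 2 they lay 0.61 above the other 5 by the median. Sucla2, a succinyl-CoA synthetase subunit, differed by -0.15 ± 0.14 and Cs, citrate synthase, by 0.16 ± 0.16. Of 16 regulators of mitochondrial gene expression 6 were higher and 10 lower, with a median of -0.06, and 1 of the 6, Twnk, was saturated on all arrays. Ppargc1a, a coactivator of mitochondrial biogenesis, differed by 0.25 ± 0.16 and Sp1, the GC box factor, by -0.17 ± 0.13. Cycs, cytochrome c, read 4.52, 4.51 and 5.25 against 4.47 and 4.56 without sham 2, again with orchidectomized 3 apart and the groups overlapping.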

How the data were processed

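Per the file headers, Agilent Feature Extraction 10.5.1.1 read the 1 channel of each array and wrote a processed intensity from which background had been subtracted. The value table deposited by the authors gives, in log2, the log2 processed signal plus 1 constant per array (-0.322 to 0.719), whose origin is not given in the sources used here. Per the labels' protocols 200 ng of RNA was labelled with Cy3.

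Control and outlier spots were left out, spots of a probe averaged, and the 75th percentile of each array subtracted on the log2 scale. RefSeq accessions matched without versions to the GRCr8 gene table named 18004 of 30367 probes; 3 genes matching the rule by an older symbol alone were left out. Flags held for a probe when 50% of its spots carried them; 23785 to 26173 probes per array were well above background. A probe was tested when every array of the orchidectomized or of the sham group read it well above background. Tests used limma 3.58.1 in R 4.3.3, two-sided, without covariates; the fit was tested on simulated data, where it recovered no change at the spread over 6 arrays and most of the larger ones at the spread without sham 2. The number of arrays limits the precision. The members and lists were chosen with earlier results of these data known. Named genes are the catalytic core, isoform sets, the smallest p per complex and direction in each fit, the 5 highest and lowest on sham 2, and the smallest p per direction of each pathway list; Cox7b, Cox5a, Cox6c-ps1, Ndufaf3 and others were named after their values were seen. A member that entered the fits and counts is not reported here by name and is not drawn in the plot of members by array.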

Additional observations from a re-analysis of the deposited data

How the results depend on the processing

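No member was called under any alternative run, with or without sham 2; the fits with slide or scan day as a block compare the groups through sham 1 as the only sham array, and their calls say nothing on stability. Over all probes, the count of calls was 0 over 6 arrays and 1 with quantile normalization or array weights. Without sham 2 it was 0, and 1 with median scaling, 2 with quantile normalization, 18 with the deposited values, 10 when scan day was a block, 6 with array weights, and 0 to 251 with 1 further array left out, 22 of them without sham 1 and 251 without sham 3. The members' median without sham 2 was 0.090, and 0.226 with slide as a block, 0.030 with quantile normalization and 0.033 to 0.187 with 1 further array left out (0.160 without orchidectomized 2, 0.187 without sham 1). It was positive in each alternative run. Over 6 arrays it ran from -0.187 to 0.090 with 1 array left out, and the deposited values gave 0.002. Sham 2 lay 0.43 above the other 5, and 0.68 with median scaling, 0.33 with quantile normalization and 0.34 with the deposited values.

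Deviations of same-numbered arrays from their group means correlated at 0.03, -0.02 and -0.02. The sham mean includes sham 2, which stands apart, so these values cannot show whether the replicate numbers pair the samples. With the replicate block the members' median without sham 2 was 0.160, and no member was called. Orchidectomized 2 has no sham partner in that fit and adds nothing to the difference.

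Cox8b, Sdha and Uqcrfs1 are given as examples of signs that reversed from the fit over 6 arrays. Many other members reversed too, since leaving out sham 2 alone moved the count from 33 of 82 higher to 69 of 82. Cox8b gave 0.09 with slide as a block, 0.35 with scan day as a block, 0.44 with array weights, and -3.32 to 0.40 with 1 array left out, 0.40 being the value without sham 2. Sdha gave 0.09 in the slide fit and 0.06 in the scan day fit. Uqcrfs1 gave 0.16 and 0.05 in these fits, and -0.52 to 0.04 with 1 array left out, 0.04 being the value without sham 2. The cause was not tested beyond the array left out. The alternatives on saturated probes were chosen after seeing the data. The files hold no mean spot signal, so normexp used the median. Saturation limits 26 members, and 3 arrays per group limit the rest.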
